A study of Arabidopsis thaliana with 50 samples.

Results

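The genes described here are 7 genes of indole glucosinolate synthesis in Arabidopsis thaliana, named by their locus identifiers in the deposited table: the 3 MYB regulators MYB34 (AT5G60890), MYB51 (AT1G18570) and MYB122 (AT1G74080), and the 4 core enzymes CYP83B1 (AT4G31500), SUR1 (AT2G20610), UGT74B1 (AT1G24100) and SOT16 (AT1G74100). All 7 were among the 18231 genes of the table. RNA was sequenced from leaves of 7-week-old plants of accession Col-0 grown in 8 h of light per day, in 50 libraries that cover 5 lines, 2 leaf parts and 5 pools for each, each pool made of 7 split leaves. The lines were wild type, the mutant pp2a-b'γ (b'γ below), in which B'γ, a regulatory subunit of the phosphatase PP2A, is mutated, the double mutants pp2a-b'γζ (b'γζ), which also affects the subunit B'ζ, and pp2a-b'γ sid2 (b'γ sid2), in which sid2 disrupts ICS1, a gene of salicylic acid synthesis, and a complemented line named pp2a-b'γ P35S:PP2A-B'γ. The 4 lines other than wild type all carry the b'γ mutation, and in the complemented line B'γ is returned behind the constitutive viral 35S promoter and not its own. Per the labels, the apical leaf parts of b'γ were yellowing and dying in places, while its basal parts looked healthy. The deposited values are log2 fold changes between the apical parts of a line and those of wild type, so all lines are compared with the same wild-type pools, and levels of the genes themselves are not given.

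Indole glucosinolates are sulfur-containing defence compounds of the cabbage order, made from tryptophan and activated when tissue is damaged or attacked. Tryptophan is first oxidised to indole-3-acetaldoxime by CYP79B2 and CYP79B3, a branch point shared with the phytoalexin camalexin. CYP83B1 then commits the aldoxime to glucosinolates, SUR1 cleaves the sulfur conjugate to a thiol, UGT74B1 adds glucose, and SOT16 adds the sulfate. MYB34, MYB51 and MYB122 are related transcription factors that switch these genes on, and they act together with the jasmonate-responsive factors MYC2, MYC3 and MYC4. SUR1 and UGT74B1 also serve the aliphatic branch made from methionine, while CYP83B1 and SOT16 serve mainly the indole branch.

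The start regions of the 6 genes that passed the test in at least 1 comparison below are shown. Whether the marked motifs bear on the changes was not tested. Each is the stretch of 250 bases just before the annotated gene start, written 5′ to 3′ on the gene's own strand, from RefSeq's annotation of build TAIR10.1. Capitals mark matches, on either strand, to 5 motifs: the G-box CACGTG, the W-box spelled TTGACC or TTGACT, the GCC-box GCCGCC, and ACCNANC, a spelling of the AC element bound by plant MYB factors. The MYB34 stretch lies at chr5:24494041-24494290, plus strand, and that of MYB122 at chr1:27855328-27855577, plus strand. Those of the enzymes lie at chr4:15275405-15275654, minus strand (CYP83B1), chr2:8880441-8880690, minus strand (SUR1), chr1:8527088-8527337, minus strand (UGT74B1) and chr1:27865695-27865944, minus strand (SOT16).
MYB34: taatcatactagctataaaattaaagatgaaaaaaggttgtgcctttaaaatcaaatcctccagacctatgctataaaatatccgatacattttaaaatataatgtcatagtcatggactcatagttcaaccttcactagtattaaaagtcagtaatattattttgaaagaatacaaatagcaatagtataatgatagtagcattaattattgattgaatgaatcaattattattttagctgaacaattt
MYB122: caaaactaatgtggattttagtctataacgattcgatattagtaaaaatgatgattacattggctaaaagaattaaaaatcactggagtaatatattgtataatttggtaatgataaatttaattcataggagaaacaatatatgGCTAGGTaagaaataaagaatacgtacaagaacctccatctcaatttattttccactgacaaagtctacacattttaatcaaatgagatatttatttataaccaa
CYP83B1: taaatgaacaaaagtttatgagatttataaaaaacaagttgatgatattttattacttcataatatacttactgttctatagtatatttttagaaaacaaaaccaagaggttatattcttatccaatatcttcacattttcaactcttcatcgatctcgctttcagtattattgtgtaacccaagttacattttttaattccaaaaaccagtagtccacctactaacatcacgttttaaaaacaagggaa
SUR1: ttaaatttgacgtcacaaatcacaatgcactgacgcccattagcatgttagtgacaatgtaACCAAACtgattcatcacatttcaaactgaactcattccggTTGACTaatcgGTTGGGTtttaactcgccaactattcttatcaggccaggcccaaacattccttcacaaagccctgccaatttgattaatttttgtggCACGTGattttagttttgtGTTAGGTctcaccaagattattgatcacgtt
UGT74B1: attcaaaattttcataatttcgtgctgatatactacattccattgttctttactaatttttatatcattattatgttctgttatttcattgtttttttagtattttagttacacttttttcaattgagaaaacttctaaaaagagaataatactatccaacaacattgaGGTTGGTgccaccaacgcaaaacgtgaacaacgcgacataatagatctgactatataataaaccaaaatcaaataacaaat
SOT16: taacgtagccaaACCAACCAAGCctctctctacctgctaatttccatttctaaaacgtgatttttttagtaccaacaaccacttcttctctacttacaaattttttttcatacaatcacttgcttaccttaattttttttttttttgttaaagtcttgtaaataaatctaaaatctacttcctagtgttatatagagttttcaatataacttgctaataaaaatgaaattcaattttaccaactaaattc

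None of the 5 motifs was found in the stretches of MYB34 and CYP83B1, nor in that of MYB51, which is not shown. The stretch of SUR1 held the most matches, 5 in all: 1 G-box, 1 W-box spelled TTGACT and 3 AC elements. MYB122 and UGT74B1 each held 1 AC element, and SOT16 held 2 that overlap each other. Among 27443 annotated start regions of the same length, 27.8% held an AC element, 6.49% a G-box, 28.4% a W-box of either spelling and 1.87% a GCC-box. The matches are letters in the sequence, not measured binding. MYB122 and SOT16 lie close together on chromosome 1, at 27855578 to 27857598 and 27864345 to 27865694, with the aliphatic sulfotransferase gene SOT18 between them. Their values differed widely all the same: in b'γ the deposited log2 fold changes were 7.69 for MYB122, 0.33 for SOT18 and 1.44 for SOT16. Over aligned bases, transcripts of SOT16 were 75.1% identical to those of SOT17 and 76.3% to SOT18, and MYB51 was 73.0% identical to MYB122. No window of 50 bases was shared exactly within these pairs.

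Since the table holds no value per library, errors were taken from the authors' deposited p-values, which fix a lowest and a highest possible standard error (SE) for each gene, assuming the same spread in every group. A gene is said to have risen or fallen when it passed a two-sided contrast test at the highest SE (the largest-error test), with a Benjamini-Hochberg adjusted p under 0.05 over the 25804 genes the authors tested, and differed by at least 1 on the log2 scale, which is 2-fold. This test takes errors to be normal. An exact permutation test over pools needs values per library, so only passing or not passing, the SE and the 95% interval are given for a contrast, and no p-value of it. The same test with the SE that holds if line differences are equally large in both leaf parts (the equal-parts test) is less strict. Each group held 5 pools, which the labels call biological replicates. Authors' corrected genotype p-values, which ask whether any of the 5 lines differs, ran from 1.34e-15 for MYB122 to 7.5e-05 for MYB51 in the deposited table.

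In the yellowing apical parts of b'γ, the regulator MYB122 and all 4 core enzymes rose, while MYB34 and MYB51 did not pass the test. MYB122 had by far the largest change of the 7, with a deposited log2 fold change of 7.69 (206-fold), and the enzymes rose by 1.35 to 1.64. So 5 of 7 genes rose and 0 fell, where 7.91% of all listed genes rose and 6.4% fell. After values were centred on 6 reference genes the same 5 rose, while the balance over all listed genes turned, from 1442 higher and 1166 lower to 1300 and 1380. Like every listed gene, these 6 had an authors' corrected genotype p under 0.05, so they are not a stable reference by that test. Their values in b'γ ran from -0.14 for UBC21 to 0.62 for UBQ10. The median of the 7 was 1.44, against 0.02 over all listed genes. In bulk tissue, fewer cells of a type and less RNA per cell cannot be told apart.

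In the other 3 lines, which also carry the b'γ mutation, MYB122 was no longer high and MYB34 took the highest value of the 7. MYB34 rose in b'γ sid2, the only gene of the 7 to pass in that line, where 2.51% of all listed genes rose and 2.54% fell. In b'γζ 0 of 7 genes passed the largest-error test (1.17% of listed genes rose and 0.647% fell), and in the complemented line 0 of 7 passed (0.285% rose and 0.433% fell). In each of these 2 lines 4 of 7 genes had an unadjusted p under 0.05. In the equal-parts test with no limit on size, 4 of 7 had an adjusted p under 0.05. Both counts were also 4 of 7 for b'γ sid2. The shares of listed genes above are for the stricter largest-error test with the size limit. How many listed genes met these looser limits was not computed, so the counts of 4 have no background. The medians of the 7 genes were 0.79 in b'γζ, 0.84 in b'γ sid2 and 0.80 after complementation, against medians of all listed genes of -0.01, 0.02 and 0.

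**Figure D1:**
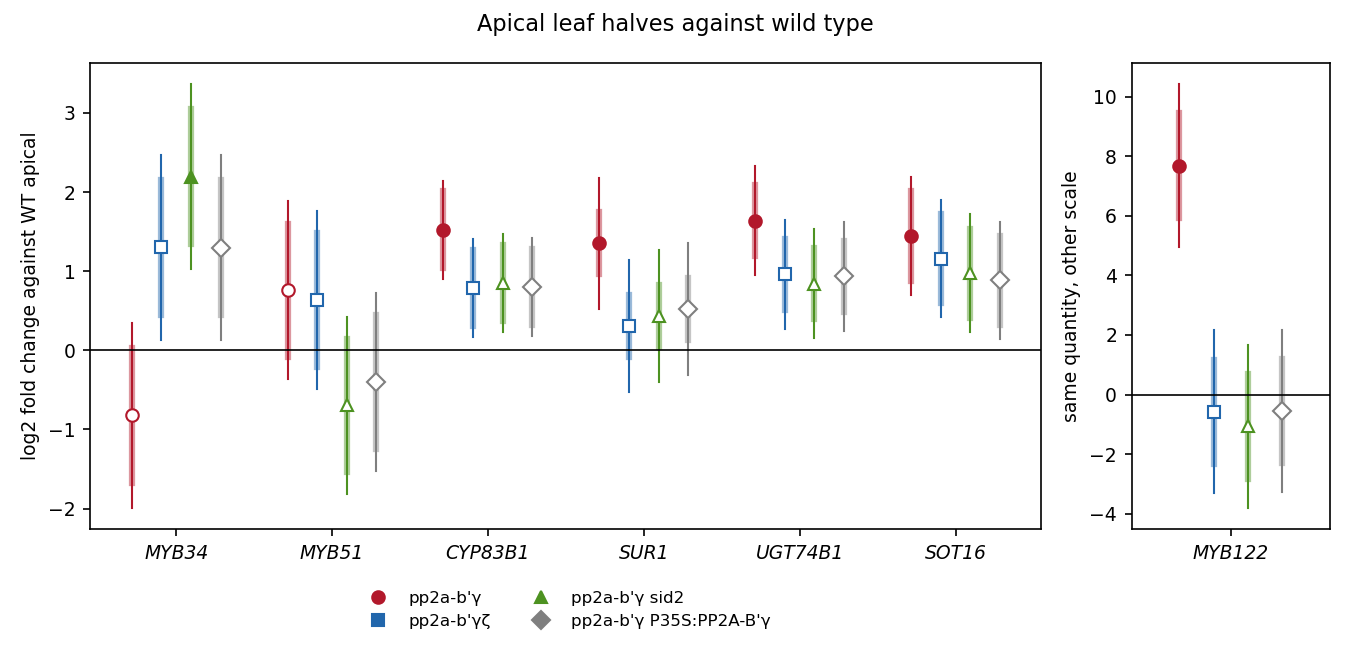
Deposited log2 fold changes against wild type in apical parts, by line, with MYB122 on an axis of its own. Filled points passed the largest-error test and the size limit, open points did not, thin lines are 95% intervals at the highest SE and thick lines those of the equal-parts test. In b'γ (red) MYB122 and the 4 enzymes are filled at 1.35 to 7.69 and MYB34 lies below 0, while in b'γ sid2 (green) MYB34 alone is filled, at 2.19.

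MYB34, a regulator known for tryptophan and indole glucosinolate genes, had deposited log2 fold changes of -0.82 in b'γ, 1.3 in b'γζ, 2.19 in b'γ sid2 and 1.3 after complementation. It was thus below wild type in the symptomatic line and above it in the other 3. The rise in b'γ sid2 was 2.19 with an SE of at most 0.58 (95% interval 1.02 to 3.36), or 4.57-fold. The value of -0.82 in b'γ did not pass (-1.99 to 0.35). Nor did those of b'γζ (0.13 to 2.47) and the complemented line (0.13 to 2.47), whose intervals lie above 0 only before adjustment, and which passed the equal-parts test. A gene below wild type in b'γ and above it in the other 3 lines was not rare, since 8.92% of listed genes had that pattern of signs.

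Set against b'γ directly, MYB34 rose in every one of the other 3 lines. The differences, each of 2 deposited values, were 2.12 in b'γζ (95% interval 0.95 to 3.29), 3.01 in b'γ sid2 (1.84 to 4.18) and 2.12 in the complemented line (0.95 to 3.29). In folds these are 4.35, 8.07 and 4.34. All comparisons with b'γ, here and below, use the same b'γ pools and are not independent of each other. In the order of lines, b'γ sid2 stood highest, but it differed from the next line, b'γζ, by only 0.89 (95% interval -0.28 to 2.06), and b'γζ and the complemented line differed by 0.00 (-1.17 to 1.17).

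MYB51, a regulator known to be strongly induced by pathogens and ethylene, had deposited log2 fold changes of 0.76 in b'γ, 0.64 in b'γζ, -0.70 in b'γ sid2 and -0.40 after complementation. It was above wild type in b'γ and b'γζ and below it in the complemented line and b'γ sid2, and passed in none of the 4 comparisons (SE at most 0.56). Against b'γ, the difference of b'γ sid2 was -1.46 (95% interval before adjustment -2.58 to -0.33) and that of the complemented line -1.16 (-2.28 to -0.04). Both failed the largest-error test and passed the equal-parts test. The authors' genotype p shows that the 5 lines differed somewhere, but which pair differs was not settled at the highest SE.

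MYB122, the third regulator, is known for weak activity in undisturbed leaves. Its deposited log2 fold changes were 7.69 in b'γ, -0.58 in b'γζ, -1.07 in b'γ sid2 and -0.56 after complementation. Only the symptomatic line lay far from wild type, and the other 3 lay slightly below it. The rise in b'γ had an SE of at most 1.35 (95% interval 4.96 to 10.42). Against b'γ it fell by 8.26 in b'γζ, by 8.76 in b'γ sid2 and by 8.24 in the complemented line, with the same SE. The other 3 lines did not pass against wild type, with 95% intervals as wide as -3.80 to 1.66 in b'γ sid2. Its SE was the largest of the 7, and with no level given the value in b'γ cannot be set against a detection limit.

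The 4 enzymes rose together in b'γ. CYP83B1 had deposited log2 fold changes of 1.52 in b'γ, 0.79 in b'γζ, 0.85 in b'γ sid2 and 0.80 after complementation, and its rise in b'γ had an SE of at most 0.31 (95% interval 0.91 to 2.14). UGT74B1 had 1.64, 0.96, 0.84 and 0.93 in the same order, and rose in b'γ with an SE of at most 0.34 (0.95 to 2.33). These 2 genes were alike in every line, with the value in b'γ standing above a narrow band that holds the other 3 lines.

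SOT16 had deposited log2 fold changes of 1.44 in b'γ, 1.16 in b'γζ, 0.97 in b'γ sid2 and 0.89 after complementation, and rose in b'γ (SE at most 0.37, 95% interval 0.70 to 2.19). Of the 4 enzymes its values were the most even across lines: b'γ and b'γζ differed by 0.29 (95% interval of b'γζ against b'γ -1.03 to 0.46). SUR1 had 1.35 in b'γ, 0.30 in b'γζ, 0.43 in b'γ sid2 and 0.52 after complementation, and rose in b'γ (SE at most 0.41, 0.52 to 2.18). It was the enzyme nearest to wild type in each of the other 3 lines.

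All 4 enzymes had values above 0 in all 4 lines, a pattern that 22.5% of listed genes share. In b'γζ, b'γ sid2 and the complemented line 0 of 4 passed the largest-error test with the size limit. In each of these lines 3 of 4 enzymes (CYP83B1, UGT74B1 and SOT16) had a 95% interval at the highest SE that lay above 0 before adjustment. The same 3 passed the equal-parts test with no limit on size, and the share of all listed genes at either of these limits was not computed. Their values there lay between 0.79 and 1.16. The comparisons share the wild-type pools, so a shift of wild type would move all 4 lines at once, and these lines are not independent of each other.

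Against b'γ, 0 of 4 enzymes passed in any of the other 3 lines. All 12 differences were below 0, but the 3 of each enzyme subtract the same b'γ pools, so the 12 are not independent. The differences ran from -1.05 for SUR1 in b'γζ (95% interval before adjustment -1.88 to -0.22) to -0.29 for SOT16 in b'γζ. In each line 3 of 4, all but SOT16, passed the equal-parts test without a size limit. Even with the size limit, that test called 2369 of 18231 listed genes higher and 2528 lower in b'γζ. The numbers were 2801 and 2781 for b'γ sid2, and 2208 and 2629 for the complemented line. Of the 7 genes, 1 rose and 1 fell in each of these comparisons, MYB34 and MYB122. The background in the largest-error test was 4.48% of listed genes higher and 6.18% lower in b'γζ, 6.71% and 7.48% for b'γ sid2, and 4.36% and 6.65% for the complemented line, all against b'γ. By the largest-error test more listed genes were lower than higher in each of these lines. After centring on the reference genes more were higher, 1260 against 919 in b'γζ, 1467 against 1180 for b'γ sid2 and 1129 against 970 for the complemented line. Among b'γζ, b'γ sid2 and the complemented line themselves, enzyme differences ran only from -0.22 to 0.27, and 0 of 7 genes passed the largest-error test in any of these 3 comparisons. Of all listed genes, 0.368% rose and 0.68% fell in b'γ sid2 against b'γζ, 0.4% and 0.0549% in b'γζ against the complemented line, and 0.856% and 0.565% in b'γ sid2 against the complemented line. At an unadjusted p under 0.05, 1 of 7 did for b'γ sid2 against b'γζ, namely MYB51 at -1.33, and 0 of 7 in the other 2. How many listed genes met that looser limit was not computed.

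**Figure D2:**
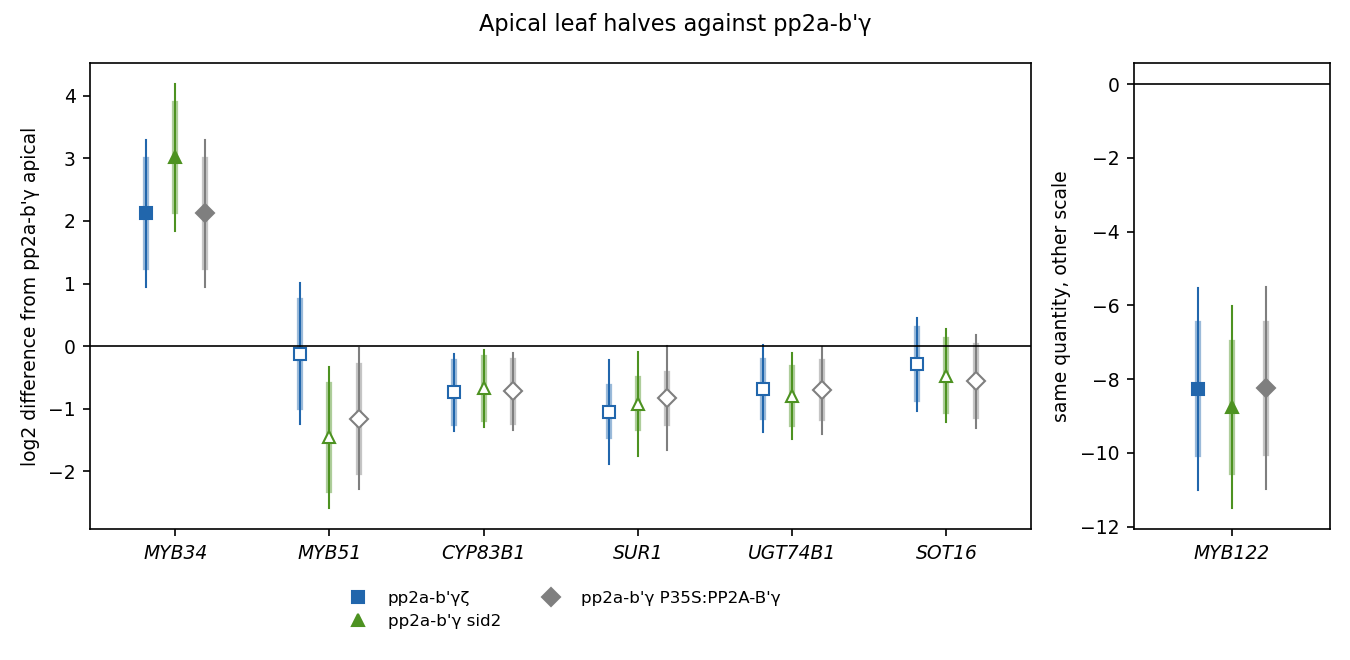
Differences of apical log2 values of b'γζ, b'γ sid2 and the complemented line from b'γ, with MYB122 on an axis of its own. Filled points passed the largest-error test and the size limit, open points did not, and thin and thick lines are 95% intervals at the highest SE and in the equal-parts test. MYB34 lies at 2.12 to 3.01 and MYB122 at -8.76 to -8.24, all filled, while the enzymes lie between -1.05 and -0.29, all open.

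Likeness between genes was measured as the Euclidean distance over the 4 deposited log2 fold changes. CYP83B1 and UGT74B1 lay 0.25 apart, UGT74B1 and SOT16 0.31, and CYP83B1 and SOT16 0.41. SUR1 was 0.72 from CYP83B1 and 1.08 from SOT16. No regulator came nearer to an enzyme than 1.61, the distance of MYB51 from SUR1, and MYB34 and MYB122 were 9.49 apart.

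Among all listed genes, the gene nearest to CYP83B1 was SOT17, a sulfotransferase of the aliphatic branch, at 0.14, followed by AT1G14130 and AT3G14990. SOT17 was also nearest to UGT74B1, at 0.24, ahead of CYP83B1 itself and AT1G33610. SOT16 was nearest to ADL1B, UGT73C7 and AT1G01660, and SUR1 to TAF14, AT2G22560 and AT1G18180. MYB34 was nearest to the MATE efflux gene AT5G44050 (0.35), AT1G80280 and ATRL1, MYB51 to EXL4 (0.25), AT1G02660 and ATMSRB4, and MYB122 to AAO4 (0.85), LAS1 and GLR2.5. With only 4 values per gene that share wild type, these are descriptions. They also depend on the measure, since 0 of these 21 were among the nearest by Pearson correlation.

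The basal leaf parts have no fold changes in the table, but the deposited p-values limit how the line differences of the 2 leaf parts can relate. The authors' deposited corrected interaction p, which asks whether line differences depend on the leaf part, was 0.00136 for MYB122 and 0.00934 for SUR1. For the other 5 it was 0.29 (MYB34), 0.849 (MYB51), 0.68 (CYP83B1), 0.123 (UGT74B1) and 0.725 (SOT16). So 2 of 7 genes were under 0.05, where 42.4% of listed genes were. A p above 0.05 does not show that the leaf parts were alike.

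The correlation over the 5 lines between basal and apical means could not be lower than 0.92 for CYP83B1, 0.91 for SOT16, 0.90 for MYB51, 0.88 for MYB34, 0.81 for UGT74B1 and MYB122, and 0.63 for SUR1. Over all listed genes the median of this lower bound was 0.63, with quartiles of 0.38 and 0.82. These bounds describe line means of paired leaf parts from the same leaves, noise included. For all but SUR1, then, the correlation of basal with apical line means was at least 0.81, though for UGT74B1 and MYB122 this bound lay under the upper quartile of listed genes. For MYB122 the correlation rests mainly on b'γ, the only line whose apical value, 7.69, lay far from wild type. The size of line differences in basal parts was between 0.665 and 1.50 times the apical size for CYP83B1, 0.603 and 1.66 for MYB34, and 0.509 and 1.97 for MYB122. For SUR1 it lay between 0.353 and 2.83, which allows basal differences much smaller or much larger than apical ones.

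**Figure D3:**
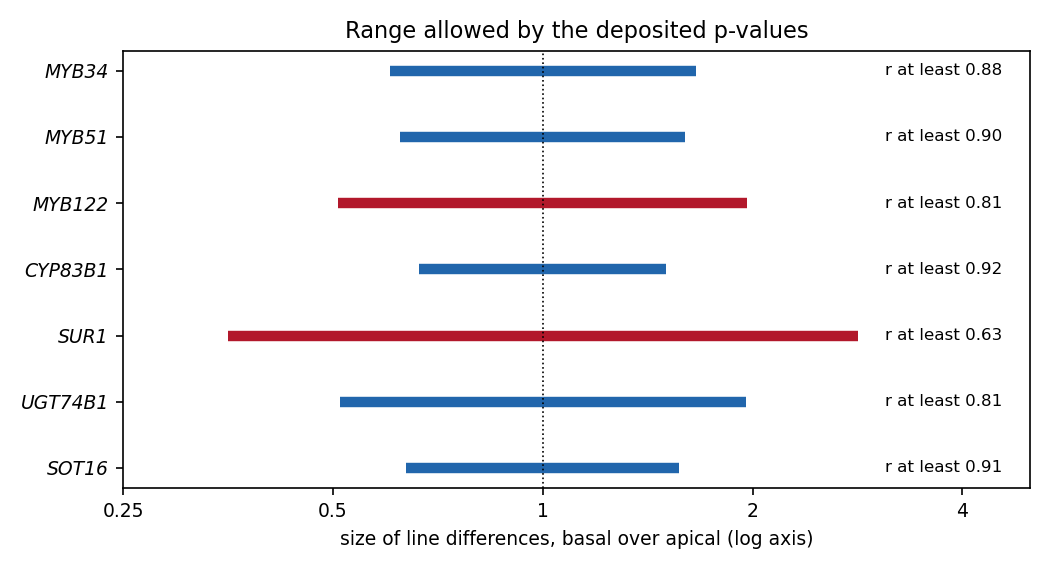
Range of the size of line differences in basal parts over that in apical parts that the deposited p-values allow, on a log axis, with the lowest possible correlation of line means at the right. Red bars are genes with a corrected interaction p under 0.05. SUR1 has the widest range, 0.353 to 2.83, and CYP83B1 the narrowest, 0.665 to 1.50.

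Averaged over lines, the leaf parts themselves differed for 3 of 7 genes by the authors' deposited corrected tissue p (SUR1 0.000635, CYP83B1 0.0127, MYB122 0.0133), where 54.1% of listed genes did. The p-values allow a difference between leaf parts of 0.27 to 0.77 on the log2 scale for SUR1, 0.27 to 0.41 for CYP83B1 and 0.92 to 1.81 for MYB122. Which leaf part was higher is not part of the deposited values. For MYB34 and MYB51 the size was at most 0.07 and 0.06.

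Upstream of the core route, tryptophan synthesis and the entry enzymes also rose in b'γ. Of 9 tryptophan synthesis genes 7 rose and 0 fell, with a median of 2.03, where 7.91% of all listed genes rose and 6.4% fell. These shares are the background of the b'γ counts for the lists below too. In the other lines the shares that rose and fell were 1.17% and 0.647% (b'γζ), 2.51% and 2.54% (b'γ sid2), and 0.285% and 0.433% (complemented). The largest changes were those of TSA1, a tryptophan synthase subunit, at 2.96, ASA1, an anthranilate synthase subunit, at 2.85, and ASB1, its partner subunit, at 2.43. ASA2 and PAI1 did not pass, at -0.75 and -0.78. The aldoxime-forming CYP79B2 and CYP79B3 rose by 5.23 and 1.63. The 3 genes of the camalexin branch, CYP71A12, CYP71A13 and CYP71B15, rose by 7.91, 5.61 and 4.39, each more than any of the 4 enzymes.

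In b'γ sid2, CYP79B3 rose by 2.07 and PAT1, an anthranilate phosphoribosyltransferase, by 1.38, the only tryptophan synthesis gene of 9 to pass there. CYP79B2 had 1.59 in that line and did not pass. In b'γζ and the complemented line 0 of 9 tryptophan genes and 0 of 2 entry enzymes passed the largest-error test. At an unadjusted p under 0.05 these were 2 and 1 in each line, with equal-parts counts of 2 and 1 in b'γζ and 3 and 0 in the complemented line. How many of all listed genes met these looser limits was not computed. Such counts, here and for the lists below, therefore have no background.

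**Figure D4:**
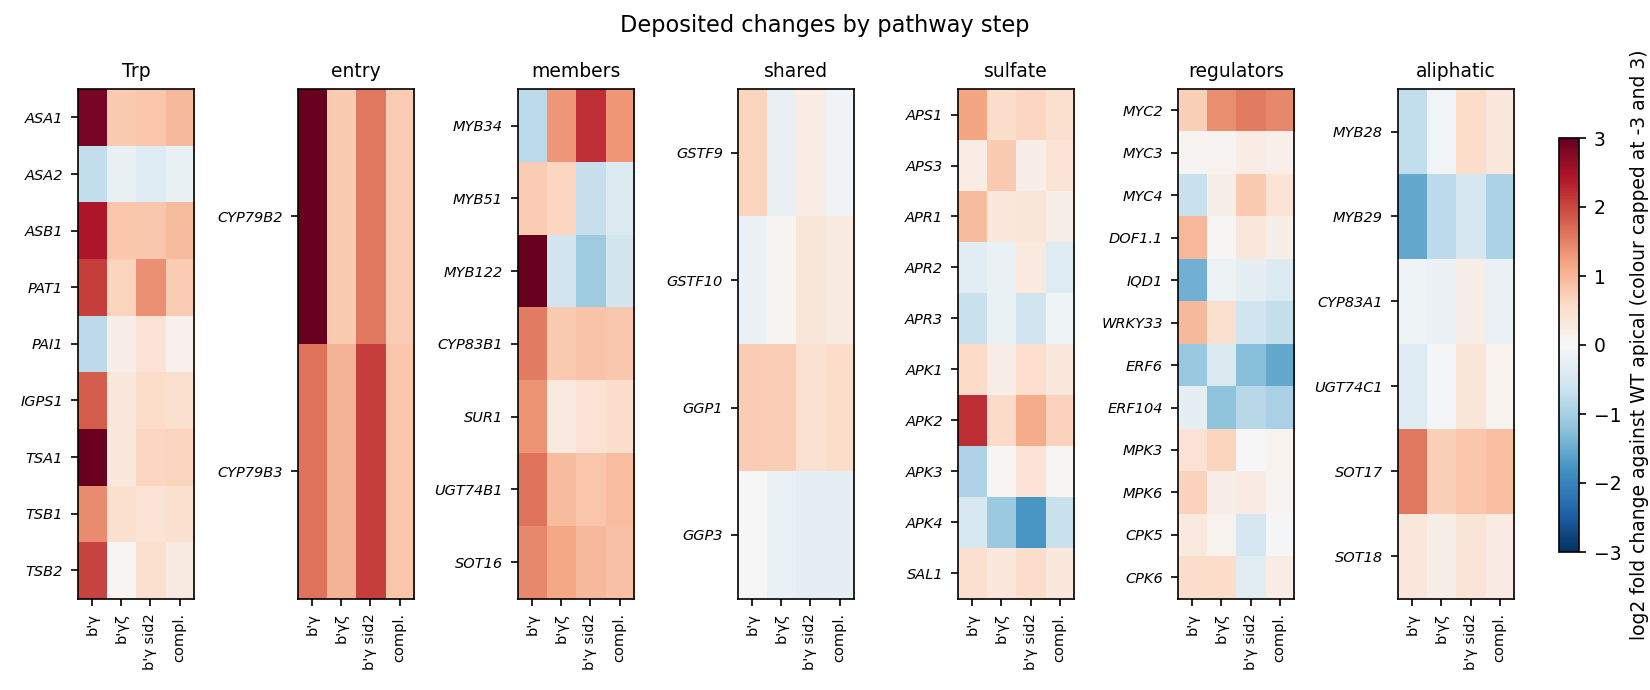
Deposited log2 fold changes against wild type in the order of the pathway, with red above and blue below wild type and colours capped at -3 and 3. Panels are tryptophan synthesis, entry enzymes, the 7 genes, enzymes outside the 7 that are shared with the aliphatic branch, sulfate activation, upstream regulators and aliphatic counterparts. Among the 7, SUR1 and UGT74B1 are shared too, and compl. is the complemented line. In the b'γ column CYP79B2 and MYB122 lie over the cap and are darkest red, with TSA1 and ASA1 close to it at 2.96 and 2.85. CYP79B3 at 1.63 has a middle tone like the 4 core enzymes at 1.35 to 1.64, and APK2 at 2.23 is darker than these. The shared enzymes outside the 7 (GSTF9, GSTF10, GGP1 and GGP3) stay pale at -0.18 to 0.77.

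Some steps of the core route are shared with the aliphatic branch. Of GSTF9, GSTF10, GGP1 and GGP3, which add and trim glutathione, 0 of 4 passed the largest-error test in any of the 4 lines, with values of 0.67, -0.18, 0.77 and 0.00 in b'γ. At an unadjusted p under 0.05, and in the equal-parts test, 2 of 4 did in b'γ and 1 of 4 in each other line. For the sulfate donor that SOT16 uses, APK2, an adenosine phosphosulfate kinase, rose by 2.23 and APS1, an ATP sulfurylase, by 1.19 in b'γ, 2 of 10 genes of sulfate activation. The third largest value in b'γ was 0.95, for APR1, which did not pass. APK4 fell by 1.73 in b'γ sid2, the only one of the 10 to pass there, and 0 of 10 passed in the other 2 lines (4 at an unadjusted p under 0.05 in b'γζ and 2 in the complemented line).

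Among 6 listed aliphatic counterparts of the 7 genes, SOT17 rose by 1.58 and the regulator MYB29 fell by 1.55 in b'γ, and 0 passed against wild type in the other 3 lines (1 of 6 in each at an unadjusted p under 0.05). MYB28, the main aliphatic regulator, had -0.74 in b'γ and did not pass against wild type in any line. Like MYB34, it rose against b'γ in the complemented line and b'γ sid2, by 1.07 and 1.29.

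Of 12 listed upstream regulators and partners, MYC2, the jasmonate-responsive partner of the MYB factors, passed in the same direction in 3 lines. Its deposited values were 0.72 in b'γ, 1.39 in b'γζ, 1.57 in b'γ sid2 and 1.43 after complementation. It rose in the last 3, the lines in which MYB34 had its 3 highest values. Against b'γ, however, MYC2 stayed under the size limit in all 3, while MYB34 rose in each. MYC4 rose against b'γ by 1.07 in the complemented line and by 1.45 with sid2, and MYC3 lay between 0.08 and 0.21 in all 4 lines. IQD1, a calmodulin-binding protein known to promote glucosinolate genes, fell by 1.45 in b'γ, and against b'γ it rose in each of the other 3 lines. ERF6 and DOF1.1 had -1.13 and 0.99 in b'γ and did not pass. WRKY33, a regulator of camalexin genes, had 0.96 in b'γ and did not pass.

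Downstream, genes that modify the indole side chain passed in b'γ sid2. Of 9 such genes, CYP81F4, which leads to 1-methoxylation, rose by 4.01 in b'γ sid2, and 4 fell, where 2.51% of all listed genes rose and 2.54% fell. The 4 were CYP81F2, which leads to 4-methoxylation, by 2.26, and the methyltransferases IGMT3, IGMT4 and IGMT1 by 1.76, 1.59 and 1.44. In b'γ 0 of 9 passed the largest-error test, with 3 at an unadjusted p under 0.05 and 5 in the equal-parts test. How many listed genes met these looser limits was not computed. CYP81F1, IGMT5 and CYP81F4 had the largest values in b'γ, 2.57, -1.83 and 1.01. The myrosinase PEN2 fell by 1.26 in b'γ sid2, where its transporter partner PEN3 had -0.45 and PCS1 -0.24. The transporter GTR1 rose by 1.13 in b'γ sid2 and by 1.59 in b'γζ, and GTR2 by 1.12 in b'γ.

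The targeted genes were checked against the labels. B'ζ fell by 2.59 in b'γζ, and B'γ had deposited values of -0.69, -0.46 and -0.72 in the 3 mutants (b'γ first, b'γ sid2 last) and 0.35 with the transgene, all under the size limit. ICS1, the gene disrupted by sid2, stood at -0.97 in apical parts of b'γ sid2, which did not pass against wild type (95% interval -2.74 to 0.79). It rose by 3.18 in b'γ, where MYB122 and the 4 enzymes also rose, and against b'γ it fell by 4.15 in b'γ sid2, by 2.57 in b'γζ and by 2.85 in the complemented line. Of 11 markers of leaf cell types and senescence, the senescence gene SAG12 rose by 13.02 in b'γ, and the epidermal genes FDH and ATML1 fell by 1.78 and 1.51. The other 8 did not pass there and ran from -1.85 for LHCB1.3 to 0.27 for FAMA. In the other 3 lines 0 of 11 passed the largest-error test against wild type, with 2, 3 and 2 at an unadjusted p under 0.05 in b'γζ, b'γ sid2 and the complemented line. In b'γ, MYB122 and the 4 enzymes rose together with SAG12 and with lower epidermal markers, and the part of cell makeup or senescence in these changes was not tested. The myrosin cell genes TGG1 and TGG2 had -1.53 and -1.74 in b'γ and 2.07 and 3.15 in b'γ sid2, where MYB34 was highest. They had 0.50 and 0.10 in b'γζ and -0.48 and -0.23 in the complemented line, with MYB34 at 1.3 in both. The part of myrosin cells in the MYB34 values was not tested either.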

How the data were processed

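Polyadenylated RNA was sequenced in 50 libraries, grouped by the line and leaf part in their labels. Per the submitters' processing notes, bcl2fastq and DESeq were used and the build was TAIR10; versions are not given in the sources used here. The deposited table holds the authors' log2 fold changes between apical parts of a line and of wild type in 4 columns, and, in 6 columns, the authors' p-value of each of 3 terms (genotype, tissue, interaction), uncorrected and corrected. Its header names no log base, and base 2 was read from steps of 0.2 between values of low genes. The deposited p-value is per gene over all lines, and every listed gene has a corrected genotype p under 0.05. Depth is unknown, so counting error and detection limits are not given.

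The 7 genes and all lists were chosen with earlier results of these data known. Uncorrected genotype and interaction p-values gave F values on 4 and 40 degrees of freedom. With the 4 fold changes they bound the residual variance of a balanced layout, if line means span no more than 20 log2 units. These degrees of freedom were checked with 69 genes in which 1 group alone departs, where F of tissue and genotype then differed by a median of 0.00795%, against 3.74% at 36 degrees of freedom. Contrasts were tested two-sided at the largest variance, and adjusted by Benjamini-Hochberg over 25804 genes, the number that the authors' own correction implies. The equal-parts test takes basal line differences to be as large as apical ones. The test takes errors to be normal with 1 spread in all groups; no exact test over pools could be run without values per library, so p-values of contrasts are not printed. Basal and apical pools of a number come from the same leaves, and the authors' p-values were read as coming from a layout that leaves this pairing out.

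There were 7 comparisons, and 3 more among the lines other than wild type and b'γ were added after the data were seen. Named genes were the 7, all members of lists of at most 4 genes, the 3 largest changes of longer lists, the targeted genes and the 3 nearest patterns of each of the 7; other genes were named after their values were seen. Of 92 distinct genes in the lists, 87 were listed; ERF5, MYB76, GTR3, UBC9 and SAND were not. Python 3.11.15, NumPy 2.4.6, SciPy 1.17.1, pandas 2.3.3 and Biopython 1.88 were used. Gene positions and sequences come from RefSeq on TAIR10.1, by locus identifier; no coordinates were converted. Alternatives were another variance, no size limit, the size limit alone, a stricter p, adjustment over listed genes, centring on all listed or on reference genes, and a span of line means of at most 10 log2 units.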

Additional observations from a re-analysis of the deposited data

Results flagged for a closer look

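For 2 of the 7 genes the line differences depended on the leaf part by the authors' own test of the interaction. The deposited corrected interaction p was 0.00136 for MYB122 and 0.00934 for SUR1. The apical values of MYB122 were 7.69 in b'γ and -0.56 to -1.07 in the other 3 lines, and those of SUR1 were 1.35 in b'γ and 0.30 to 0.52 in the other 3. Fold changes of basal parts are not in the table used here, so which line and which direction carry the dependence was not tested. Of all listed genes, 42.4% had a corrected interaction p under 0.05.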

How the results depend on the processing

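In each of the 7 comparisons the count of genes that passed changed under at least 1 alternative. In b'γζ against wild type 0 genes passed, and 2 did in the equal-parts test, 2 with the size limit alone and 1 after centring on the reference genes (SOT16). In b'γ sid2 against wild type 1 passed, and 2 did with the size limit alone. In the complemented line against wild type 0 passed, and 1 did in the equal-parts test and 1 with the size limit alone. With that limit alone, 4.69% of listed genes were higher and 2.92% lower in b'γζ, 6.55% and 5.56% for b'γ sid2, and 2.63% and 2.22% for the complemented line. Equal-parts counts of the 18231 listed genes were 537 higher and 295 lower in b'γζ, 906 and 818 for b'γ sid2, and 195 and 211 for the complemented line. In b'γ against wild type 5 passed under 7 of the 8 alternatives and 4 at an adjusted p under 0.01, where SUR1 no longer passed. Against b'γ, 2 passed in each of the other 3 lines, and 3 did in the equal-parts test and with the size limit alone: SUR1 was added in b'γζ, and MYB51 in the other 2 lines. With that limit alone, 13.8% of listed genes were higher and 14.5% lower in b'γζ against b'γ. The shares were 16.1% and 15.8% for b'γ sid2, and 12.9% and 15.1% for the complemented line. Equal-parts counts of listed genes were 2369 higher and 2528 lower in b'γζ, 2801 and 2781 for b'γ sid2, and 2208 and 2629 for the complemented line. For b'γ sid2 MYB51 also passed when adjusted over listed genes only. Of 49 single differences, 1 changed sign: MYB51 in b'γζ against b'γ was -0.12 and became 0.14 after centring on the reference genes. All 6 reference genes themselves differed between lines by the authors' corrected genotype p, so this centring is not a neutral check. Centring on 6 reference genes shifted b'γ by 0.18, and moved the split of all listed genes that rose and fell from 1442 and 1166 to 1300 and 1380 in b'γ, from 458 and 463 to 484 and 427 in b'γ sid2, from 214 and 118 to 268 and 77 in b'γζ, from 52 and 79 to 64 and 64 in the complemented line, and, against b'γ, from 817 and 1127 to 1260 and 919 in b'γζ, from 1223 and 1363 to 1467 and 1180 in b'γ sid2, and from 794 and 1213 to 1129 and 970 in the complemented line. Of the 21 nearest genes by distance, 0 were also among the nearest by Pearson correlation. The equal-parts test called more of all listed genes than the largest-error test in each of the 7 comparisons, for example 2993 higher and 2833 lower against 1442 and 1166 in b'γ. No paired analysis was possible because the deposited columns carry no value per library and no replicate number, and for the same reason no replicate could be left out. Without values per library, an unequal spread between groups cannot be seen.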
